A study of Caenorhabditis elegans with 8 samples.

Results

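Acetylcholine is made, packed, broken down and taken back up by a small set of proteins, and 7 genes that encode them in Caenorhabditis elegans are described here. They were chosen by name: the acetylcholinesterase genes ace-1, ace-2, ace-3 and ace-4, the choline acetyltransferase gene cha-1, the vesicular acetylcholine transporter gene unc-17 and the choline transporter gene cho-1. The deposited tables hold 46244 gene identifiers, and the 7 genes fall on 6 of their rows, because cha-1 and unc-17 have 1 row between them. The DEET worms were kept for 24 hours with DEET, an insect repellent, dissolved in DMSO at 0.1 M per the labels, which do not say whether that is the stock or the final concentration. The control worms were kept for the same time with DMSO at 0.1%, the solvent alone. All worms carried the strain label col-121, a cuticle collagen gene for which no allele is given, were picked late in the L4 larval stage per the series' design text, and were pooled as 1000 whole animals per sample. There were 4 DEET and 4 DMSO samples, described as independent biological repeats, and each label carries a pair number, called a batch, that joins 1 sample of each.

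Choline acetyltransferase joins choline to an acetyl group inside cholinergic neurons, the vesicular transporter loads the product into synaptic vesicles, and acetylcholinesterases split it after release. The choline transporter then returns choline to the nerve ending. Acetylcholine is the main excitatory transmitter at worm neuromuscular junctions, and loss of enough cholinesterase makes worms uncoordinated or kills them. DEET has been reported to inhibit acetylcholinesterase in insect and mammalian preparations, which is a matter of enzyme activity and not of transcript level.

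The libraries held 45987026 to 50295321 counts in DEET and 44437681 to 50155299 in DMSO, and ribosomal RNA took 5.99% to 12.1% of them in DEET and 3.91% to 10.9% in DMSO (the pair 4 library had the top share in both treatments). Markers chosen for neurons, body wall muscle, pharynx, intestine, oocytes, sperm and embryos all had counts in at least 1 library. Of the 6 rows, 5 passed the filter on low counts and ace-4 did not. Pair 4 stands apart from the other pairs over the whole table, so the tests between treatments and between pairs were also run without it. Correlations and shares of variance use all 8 libraries and were not repeated without pair 4.

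The 7 genes lie at 5 loci of genome build WBcel235. The gene ace-1 is on chromosome X (16367293 to 16373789, plus strand, 10 exons) and ace-2 on chromosome I (3301368 to 3307935, minus strand, 10 exons). On chromosome II, ace-4 (14198046 to 14205460, 17 exons) ends 174 bases before ace-3 starts (14205635 to 14210214, 8 exons), both on the plus strand, and the pair is known to be transcribed as an operon. On chromosome IV, cho-1 spans 13209730 to 13214566 (minus strand, 9 exons). The cholinergic locus, also on chromosome IV and the minus strand, holds cha-1 (3613931 to 3624697, 11 exons) and unc-17 (3618259 to 3624699, 4 exons). Both transcripts begin with a common first exon, of which 66 bases are shared, and the other 3 exons of unc-17 lie inside the 6856-base first intron of cha-1. The annotation gives both the sequence name ZC416.8, and the tables hold a single ZC416.8 row. That row, written cha-1/unc-17 below, cannot say how much of its signal belongs to the synthetic enzyme and how much to the vesicular transporter. Among the esterases, ace-2 shares 42 exonic bases with Y44E3A.7 on the same strand, so a few of its reads cannot be assigned with certainty.

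Each of the 6 rows averaged below the median gene in whole worms. Levels are given in TPM (transcript abundance scaled for transcript length and library depth), as deposited. Over the 8 libraries ace-2 averaged 6.60 TPM, ace-1 2.36 TPM, cha-1/unc-17 1.71 TPM, ace-3 0.885 TPM, cho-1 0.651 TPM and ace-4 0.0963 TPM, against a median of 10.9 TPM over the 15496 tested genes. The highest of them, ace-2, lay above 42.4% of the tested genes, and cho-1 above 8.36%. The order ace-2, ace-1, cha-1/unc-17, ace-3, cho-1, ace-4 held between neighbours in 8 of 8 libraries, except that ace-3 exceeded cho-1 in 7 of 8. The TPM ranges of ace-1 and cha-1/unc-17 overlapped between libraries, as did those of ace-3 and cho-1, whereas ace-2, cha-1/unc-17 and cho-1 each stayed above the highest value of the next gene down. How far a whole-worm level reflects few expressing cells or little RNA per cell cannot be told apart in such samples.

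The question put to these genes was whether transcripts for making or breaking down acetylcholine differ between DEET and DMSO worms. No row did by the tests used. Every one of the 6 had overlapping ranges in the 2 treatments. With edgeR's quasi-likelihood test on counts, 0 of the 5 tested rows passed an adjusted p of 0.05, and 0 had an unadjusted p under 0.05. Over all genes the same test called 0% of 15496, with 45 at an unadjusted p under 0.05. With the pair number as a block it called 0 of the 5 rows, against 0.0839% of all tested genes. DESeq2, which tested ace-4 as well, called 0 of 6 rows without the block (0.0419% of all its tested genes) and 0 of 6 with it (0.131%). The DEET and DMSO libraries separated completely in TPM for 0.484% of the tested genes and for none of the 6 rows, as the plot of TPM by library shows. The log2 CPM had 1 direction in all 4 pairs for 0 of the 6 rows, against 10.3% of tested genes. Log2 CPM here means counts scaled for library depth and by edgeR's TMM factors, and not for transcript length.

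**Figure D1:**
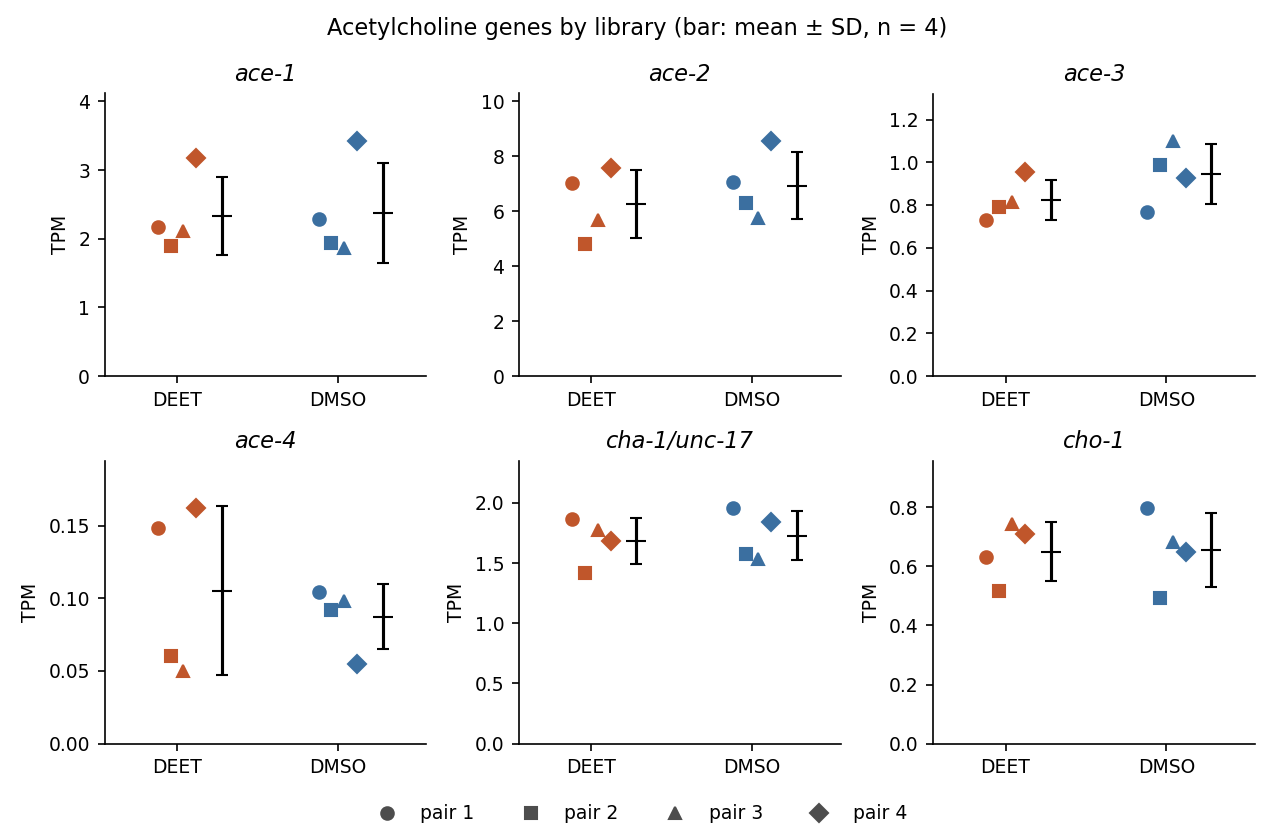
TPM of each row (vertical axes, linear, from 0) in the 4 DEET and the 4 DMSO libraries; symbols give the pair and black bars the mean ± SD. In every panel the DEET and DMSO points overlap, and the pair 4 libraries are the highest of their treatment for ace-1 and ace-2.

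The breakdown enzymes come first by level. ACE-2 is the esterase made mainly in neurons. Its gene, ace-2, stood at 7.01, 4.81, 5.70 and 7.56 TPM in DEET pairs 1 to 4, and at 7.08, 6.31, 5.77 and 8.57 TPM in DMSO pairs 1 to 4. The means were 6.27 ± 1.25 TPM in DEET and 6.93 ± 1.22 TPM in DMSO (SD, n = 4 each), and the lowest value of the 8 belonged to DEET pair 2. Within pairs the log2 CPM ratio (DEET over DMSO) was 0.0043, -0.39, -0.028 and -0.18, so most of the difference lay in pairs 2 and 4. The edgeR log2 fold change was -0.14 ± 0.18 (SE) without the block, with an adjusted p of 1, and -0.15 ± 0.07 (SE) with it, with an unadjusted p of 0.0737 and an adjusted p of 0.9999. With the block, limma voom put the 95% interval of the fold at 0.812 to 1.01, the lowest upper bound among the rows. Without pair 2 the blocked log2 fold change was -0.058 ± 0.064 (SE, edgeR adjusted p = 0.9499). In the blocked edgeR fit of all 8 libraries, the 20 body wall muscle markers had a median log2 fold change of -0.069. Of them, 16 were below 0 and 0 were called. The 19 pan-neuronal markers had a median of -0.011, with 11 below 0 and 0 called. Over all 15496 tested genes the median was 0.0049, with 7295 below 0. An unadjusted edgeR p under 0.05 was found for 4 muscle and 2 pan-neuronal markers, and for 526 of all tested genes. The part of these markers in the ace-2 value was not tested.

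ACE-1 is the esterase of body wall and pharyngeal muscle and of some neurons. Its gene, ace-1, had 2.17, 1.90, 2.11 and 3.17 TPM in DEET pairs 1 to 4, against 2.29, 1.93, 1.87 and 3.43 TPM in DMSO pairs 1 to 4. The means of 2.34 ± 0.57 TPM in DEET and 2.38 ± 0.72 TPM in DMSO (SD, n = 4 each) were nearly equal, and both pair 4 libraries stood above all others. Its log2 ratios by pair were -0.056, -0.037, 0.16 and -0.11. The blocked log2 fold change was -0.016 ± 0.089 (SE, edgeR adjusted p = 0.9999), and the limma voom interval of the fold ran from 0.861 to 1.12.

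ACE-3 has a distinct enzymatic class and is made in few cells. The gene ace-3 was at 0.732, 0.794, 0.813 and 0.956 TPM in DEET pairs 1 to 4, and at 0.768, 0.988, 1.10 and 0.925 TPM in DMSO pairs 1 to 4. The DEET value was below its DMSO partner in pairs 1 to 3 and above it in pair 4. The means were 0.824 ± 0.095 TPM in DEET and 0.946 ± 0.139 TPM in DMSO (SD, n = 4 each). Its blocked log2 fold change of -0.19 ± 0.14 (SE, edgeR adjusted p = 0.9999) was the lowest of the 5 tested rows, with an interval of 0.713 to 1.085 for the fold by limma voom.

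No cholinesterase activity has been assigned to ACE-4, although its gene is transcribed. The gene ace-4 had 12, 5, 4 and 15 counts in DEET pairs 1 to 4 and 9, 7, 8 and 5 counts in DMSO pairs 1 to 4. Summed, these are 36 counts in DEET (95% exact Poisson interval 25.2 to 49.8) and 29 in DMSO (19.4 to 41.7), and the intervals, which cover counting error only, overlap. Large differences between single libraries, such as the log2 ratio of 1.24 in pair 4, rest on few counts. DESeq2 and edgeR without a filter gave log2 fold changes of 0.29 and 0.29 for it without the block, both with an adjusted p of 1.

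Synthesis and packing share the cha-1/unc-17 row. That row had 1.86, 1.42, 1.77 and 1.68 TPM in DEET pairs 1 to 4, and 1.96, 1.57, 1.54 and 1.84 TPM in DMSO pairs 1 to 4. The DEET mean was 1.68 ± 0.19 TPM and the DMSO mean 1.73 ± 0.20 TPM (SD, n = 4 each). Pair 3 alone was higher in DEET, with a log2 ratio of 0.20. With the block the log2 fold change was -0.030 ± 0.11 (SE, edgeR adjusted p = 0.9999), and the limma voom interval for the fold was 0.833 to 1.15.

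The choline transporter gene cho-1, which serves recycling, had 0.630, 0.516, 0.742 and 0.708 TPM in DEET pairs 1 to 4, against 0.796, 0.492, 0.681 and 0.647 TPM in DMSO pairs 1 to 4. The means were 0.649 ± 0.100 TPM in DEET and 0.654 ± 0.126 TPM in DMSO (SD, n = 4 each). Here pair 1 alone was lower in DEET, with a log2 ratio of -0.32. Its blocked log2 fold change was -0.011 ± 0.16 (SE, edgeR adjusted p = 0.9999), and the limma voom interval for the fold was 0.775 to 1.27, the widest above 1 among the rows.

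**Figure D2:**
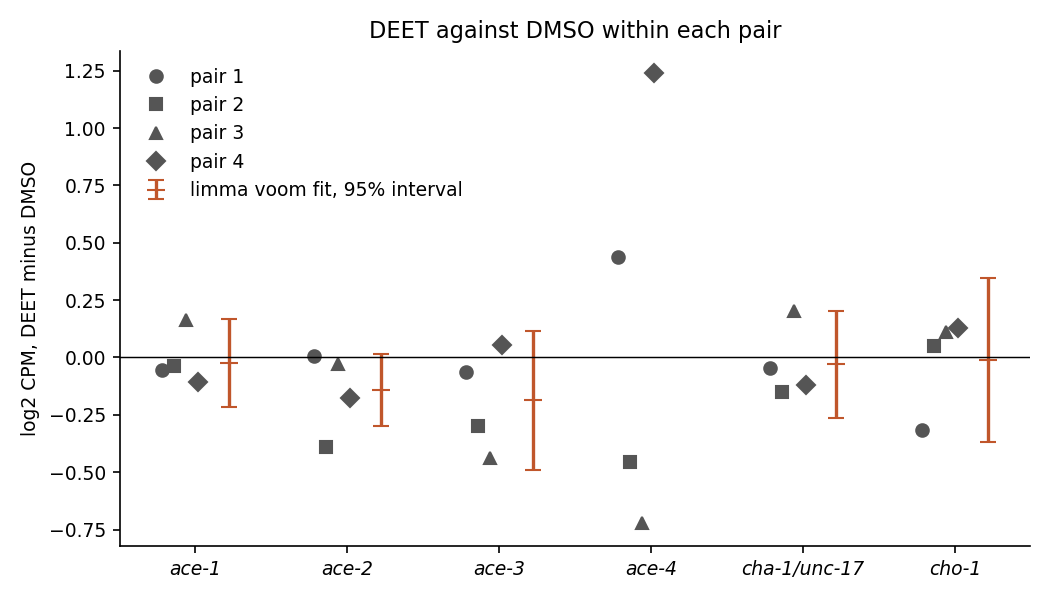
Log2 CPM of DEET minus DMSO within each pair (grey symbols, vertical axis in log2 units) for the 6 rows, with the limma voom log2 fold change and its 95% interval from the fit with the pair as a block (orange; ace-4 was not in that fit). All 5 intervals include 0, and the ace-4 points spread from -0.72 to 1.24.

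Intervals of this width leave room for modest differences. They do not show that DEET left these transcripts unchanged. Without the block the limma voom intervals of the fold were wider, from 0.675 to 1.46 for ace-1 and from 0.678 to 1.199 for ace-2. Part of the spread is counting error. For ace-3 the coefficient of variation of TPM was 11.5% in DEET and 14.7% in DMSO. Counting alone would give 11.6% and 10.9% at its depth. For cho-1 it was 15.4% in DEET and 19.2% in DMSO, with 14.4% and 14.3% from counting. By contrast ace-1 varied by 24.3% in DEET and 30.5% in DMSO, with 6.70% and 6.64% from counting, and ace-2 by 19.9% and 17.6%, with 4.19% and 3.99%.

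For ace-1 and ace-2 the larger differences ran between the pairs. A test of the pair coefficients in the blocked edgeR fit called 2 of the 5 tested rows, ace-1 (adjusted p = 5.1e-04) and ace-2 (adjusted p = 0.0019), while 64.9% of all tested genes were called. The share among these rows was thus no higher than the background. The adjusted p was 0.339 for ace-3, 0.242 for cha-1/unc-17 and 0.200 for cho-1. In pair 4, ace-1 had 3.17 TPM in DEET and 3.43 TPM in DMSO, against 1.87 to 2.29 TPM in the other 6 libraries, and ace-2 had 7.56 TPM in DEET and 8.57 TPM in DMSO, against 4.81 to 7.08 TPM. Both pair 4 libraries were above the other 6 for these 2 rows and for 33.6% of tested genes. The pair 4 mean exceeded the mean of pairs 1 to 3 by 0.70 log2 CPM for ace-1, 0.42 for ace-2, 0.14 for ace-3, 0.12 for ace-4, 0.10 for cho-1 and 0.075 for cha-1/unc-17, with a median of 0.077 over all tested genes. Without pair 4, neither call was kept: the edgeR adjusted p was 0.454 for ace-1 and 0.0662 for ace-2. Over all tested genes the calls then fell as well, to 2992 of 15319 from 10053 of 15496.

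In the same libraries the transcript levels of several marker lists differed as well. The summed TPM of 16 oocyte and germline markers was 4740 in DEET pair 4 and 4082 in DMSO pair 4, against 6939 to 7515 in the other DEET libraries and 7077 to 7482 in the other DMSO libraries. The sum of 20 body wall muscle markers was 4615 in DEET pair 4 and 5154 in DMSO pair 4, against 3086 to 3798 in the other DEET libraries and 3024 to 3876 in the other DMSO libraries. The sum of 13 intestine markers was 10387 in DEET pair 4 and 11441 in DMSO pair 4, against 14911 to 17540 in the other DEET libraries and 15350 to 18433 in the other DMSO libraries. The sum of 19 pan-neuronal markers showed no such gap, at 533 in DEET pair 4 and 528 in DMSO pair 4, against 523 to 535 in the other DEET libraries and 532 to 542 in the other DMSO libraries, and the synaptic vesicle gene snb-1 made up 42.5% of it. On a log2 CPM scale, averaged over genes, pair 4 stood above pairs 1 to 3 by 0.31 for body wall muscle markers, by 0.27 for the pan-neuronal markers and by 0.90 for 15 sperm markers, and the difference was -0.31 for the intestine markers and -0.70 for the oocyte and germline markers. The pan-neuronal list was thus higher in pair 4 as a mean over genes and not as a sum. By the same log2 CPM mean the pair 4 difference was -0.015 for 8 pharynx markers and 0.14 for 14 markers of other transmitters. The sum for other transmitters was 303 in DEET pair 4 and 293 in DMSO pair 4. It was 345 to 379 in the other DEET libraries and 346 to 377 in the other DMSO libraries. The gene tdc-1 made up 47.7% of the sum for other transmitters. The pharynx sum was 53.6 in DEET pair 4, against 44.2 to 52.2, and 51.1 in DMSO pair 4, against 44.6 to 51.8. Of the pharynx sum, tni-4 made up 53.4%. Marker transcript levels do not measure the share of a tissue. Their part in the ace-1 and ace-2 values was not tested.

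**Figure D3:**
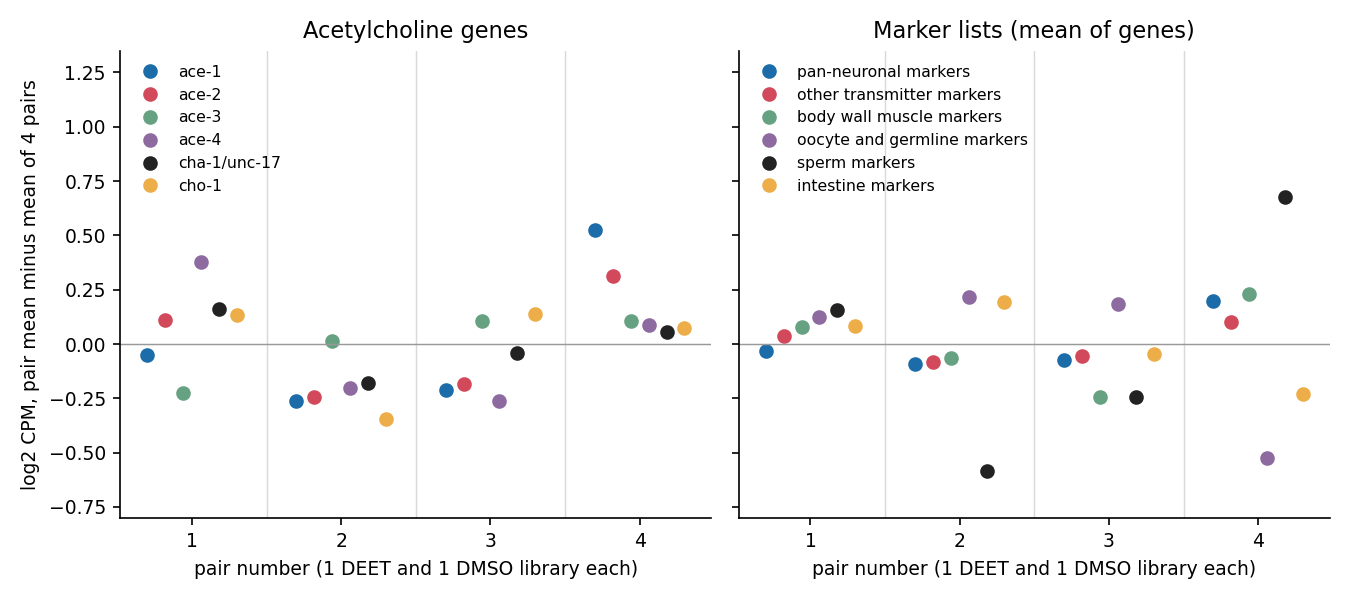
Mean log2 CPM of the 2 libraries of each pair minus the mean of the 4 pairs (vertical axis, log2 units), for the 6 rows (left) and for the mean over genes of 6 marker lists (right). The ace-1 and ace-2 points lie highest in pair 4, at 0.53 and 0.31. In pair 4 the sperm, body wall muscle, pan-neuronal and other transmitter markers are also above 0. The intestine markers and the oocyte and germline markers are below it there.

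The make-up of the esterase family was similar in both treatments. Summed over ace-1 to ace-4, the level was 10.1, 7.56, 8.67 and 11.9 TPM in DEET pairs 1 to 4, and 10.2, 9.32, 8.83 and 12.98 TPM in DMSO pairs 1 to 4. Of this sum ace-2 held 65.7% ± 2.8 in DEET and 67.0% ± 1.7 in DMSO, and ace-1 held 24.4% ± 2.2 in DEET and 22.7% ± 2.6 in DMSO (SD, n = 4 each). The remainder was mostly ace-3, at 8.80% ± 1.42 in DEET and 9.43% ± 2.56 in DMSO, with ace-4 at 1.05% ± 0.44 in DEET and 0.885% ± 0.314 in DMSO (SD, n = 4 each). All 4 shares overlapped between treatments. From the ace-4/ace-3 operon, the downstream ace-3 was present at 4.92 to 16.2 times the TPM of ace-4 in DEET and at 7.34 to 16.9 times in DMSO, a wide range set against the few ace-4 counts.

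The summed ace-1 to ace-4 level was also set against the shared cha-1/unc-17 row, which mixes synthesis and vesicle loading. The sum stood at 5.40, 5.32, 4.89 and 7.05 times the cha-1/unc-17 TPM in DEET pairs 1 to 4, and at 5.23, 5.92, 5.75 and 7.05 times in DMSO pairs 1 to 4. The 2 pair 4 libraries had the highest ratios of all, and the treatments overlapped. For ace-1 alone the ratio to cha-1/unc-17 was 1.89 in DEET pair 4 and 1.86 in DMSO pair 4, against 1.17 to 1.33 in the other DEET libraries and 1.17 to 1.23 in the other DMSO libraries. The ratio of cho-1 to cha-1/unc-17 showed no such gap, at 0.338 to 0.421 in DEET and 0.312 to 0.443 in DMSO. The difference between genes in how far pair 4 stood apart was not tested.

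The remaining genes of cholinergic transmission were read as lists in the same fits, and none of their tested members passed with or without the block. Median blocked log2 fold changes were -0.0017 for 28 genes of vesicle release and recycling, -0.041 for 32 acetylcholine receptor genes, 0.0083 for 13 genes of receptor assembly and clustering, 0.011 for 17 genes of choline and phosphatidylcholine metabolism and -0.072 for 8 regulators of cholinergic neuron identity. The median was -0.030 for the 5 acetylcholine synthesis and breakdown rows and 0.0049 for all tested genes. At an unadjusted p under 0.05 with the block there was 1 gene in these 5 lists, and there were 526 among all 15496.

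Of the genes with a mean of at least 50 counts, the 2 with the lowest blocked p in each list are named. Under that count limit, the receptor genes lgc-47 and lgc-46 and the regulator gene unc-3 ranked ahead of the genes named from their lists. The regulator genes unc-42, unc-86, unc-55 and vab-7, also under it, ranked ahead of hlh-3. Blocked log2 fold changes were -0.36 for lgc-47, -0.58 for lgc-46, -0.43 for unc-3 and 0.45 for unc-42. They were -0.20 for unc-86, -0.19 for unc-55 and -0.18 for vab-7. Each of these genes had an edgeR adjusted p of 0.9999, and all were added after their values were seen. The 1 gene at an unadjusted p under 0.05 was lev-9, which encodes a secreted scaffold that clusters muscle acetylcholine receptors. It had 0.573, 0.543, 0.545 and 0.612 TPM in DEET pairs 1 to 4, against 0.782, 0.687, 0.601 and 0.680 TPM in DMSO pairs 1 to 4. Each DEET value was below its partner, but the treatments overlapped, and the blocked log2 fold change of -0.27 had an edgeR adjusted p of 0.9999. Log2 CPM was lower in DEET in 4 of 4 pairs for 5.72% of tested genes. Its companion unc-50, needed for receptor trafficking, had a blocked log2 fold change of 0.071. Among receptors, lev-1, a subunit of the levamisole-sensitive muscle receptor, was at 1.80 ± 0.39 TPM in DEET and 2.06 ± 0.20 TPM in DMSO, and acr-11, another nicotinic subunit, at 1.56 ± 0.10 TPM in DEET and 1.33 ± 0.19 TPM in DMSO (SD, n = 4 each).

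Of the release genes, tom-1, whose product tomosyn restrains vesicle priming, was at 8.77 ± 1.22 TPM in DEET and 8.13 ± 0.82 TPM in DMSO (SD, n = 4 each). The G protein regulator gene egl-10 was at 8.28 ± 0.54 TPM in DEET and 8.79 ± 0.73 TPM in DMSO (SD, n = 4 each). In the choline list snf-6, a transporter gene linked to acetylcholine uptake at the muscle, was at 43.0 ± 7.3 TPM in DEET and 40.6 ± 9.3 TPM in DMSO, and the betaine transporter gene snf-3 at 19.5 ± 1.7 TPM in DEET and 20.5 ± 2.2 TPM in DMSO (SD, n = 4 each). The homeobox gene ceh-14 had a blocked log2 fold change of 0.18 and the proneural gene hlh-3 one of 0.032. Each of these 6 genes had overlapping treatments and an edgeR adjusted p of 0.9999 with the block.

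Proteins that share the cholinesterase fold without being cholinesterases gave the widest single difference in these lists. The list of 35 genes (neuroligin nlg-1, gliotactin glit-1, the gut esterase ges-1 and the cest carboxylesterase family) had 34 tested members, and 0 passed with or without the block. The median blocked log2 fold change was -0.042, with 24 below 0, against 0.0049 and 7295 over all 15496 tested genes. With the block 4 had an unadjusted edgeR p under 0.05, against 526 of all tested genes. Of these 4, cest-24, cest-25 and cest-9.1 were below 0 and cest-35.2 was above it. The gene cest-35.2 had 2.70, 1.51, 1.70 and 1.81 TPM in DEET pairs 1 to 4, against 1.13, 1.11, 1.27 and 1.01 TPM in DMSO pairs 1 to 4. All DEET values lay above all DMSO values, a separation in either direction that 0.484% of tested genes had. Its blocked log2 fold change was 0.75, with an unadjusted p of 6.6e-04, but an adjusted p of 0.323 by edgeR, and without the block the adjusted p was 1. The other gene named from this list, cest-9.1, was at 5.37 ± 0.84 TPM in DEET and 6.08 ± 0.87 TPM in DMSO (SD, n = 4 each), with a blocked log2 fold change of -0.18 and an edgeR adjusted p of 0.9999.

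**Figure D4:**
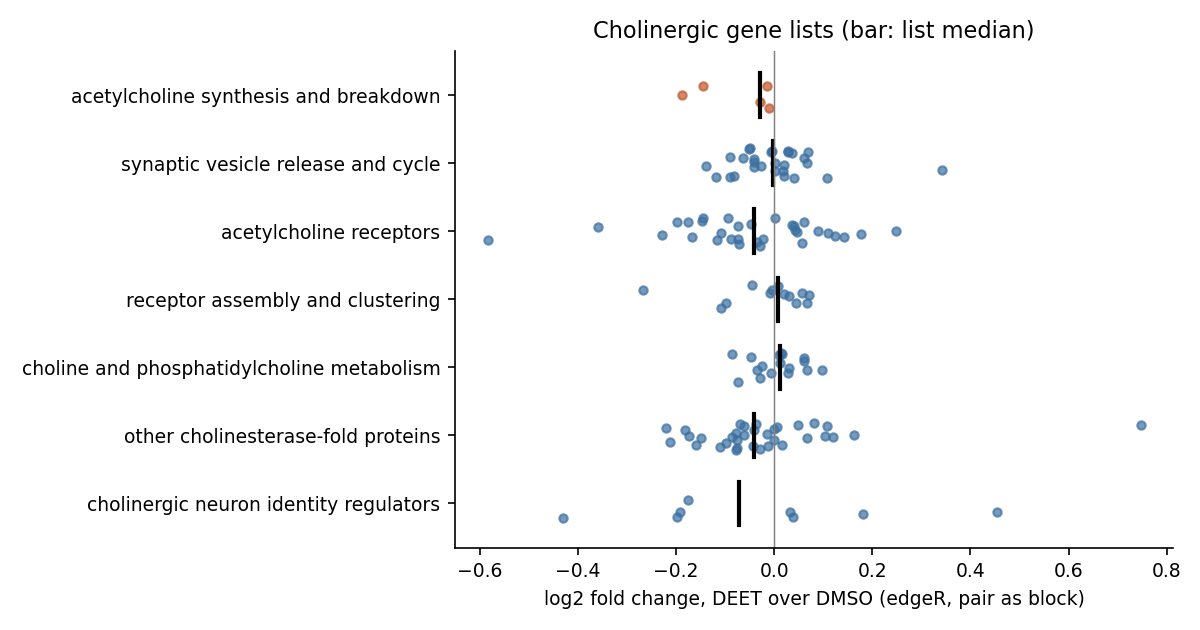
Blocked edgeR log2 fold change, DEET over DMSO (horizontal axis), of each tested gene (points; vertical scatter within a row has no meaning) in 7 gene lists, with the list median as a black bar. Medians lie between -0.072 and 0.011, and the point farthest from 0, at 0.75, is cest-35.2.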

How the data were processed

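Polyadenylated RNA of whole worms was sequenced as paired reads of 38 nucleotides on an Illumina NextSeq, per the labels' protocols. The deposited count table holds whole-number counts per gene, and the deposited TPM table holds TPM values for the same genes. Salmon, DESeq2 and build WBcel235 are named in the submitters' processing notes; the sources used here give no version, strand use or rounding for them. Identifiers were matched by sequence name to the Ensembl annotation of that build, 46177 of 46244 to 1 gene each and 3 to more than 1.

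Counts were tested with edgeR 4.0.16 in R 4.3.3 (quasi-likelihood test, TMM scaling, default filter by group, Benjamini-Hochberg adjustment over all tested genes, two-sided, threshold 0.05). An edgeR SE is the log2 fold change divided by the square root of F, so it restates the p. DESeq2 1.42.0, limma 3.58.1 (voom, and log2(TPM + 1) or log2(TPM + 0.1)), RLE scaling, no filter, no rRNA and left-out samples were alternatives. Log2 CPM values and ratios use TMM factors and a prior count of 2. The edgeR, DESeq2 and voom fits were also run on simulated data, with changes larger than any fitted for the rows here. That run did not check small changes or the test between pairs.

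Same-numbered samples of the 2 treatments deviated together from their group means (correlations of 0.429, 0.706, 0.558 and 0.896 for pairs 1 to 4 across genes), so the numbers pair the samples, as the labels state. No 2 libraries of a treatment matched within sampling noise (lowest mean chi-square per gene 14.3), so each counted once. Named genes were the members, and per list the called genes or else the 2 with the lowest blocked p and a mean of at least 50 counts. The members and lists were chosen with earlier results of these data known. Of the listed genes, acr-1, acr-22 and unc-74 were not matched by symbol and were not used here.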

Additional observations from a re-analysis of the deposited data

How the results depend on the processing

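None of the 28 alternatives called a row of the acetylcholine genes between DEET and DMSO, and the lowest unadjusted p was 0.0516, for ace-2 with the replicate block and without pair 1. The log2 fold change stayed below 0 in all of them for ace-2 (-0.23 to -0.016) and ace-3 (-0.28 to -0.081). It changed sign with left-out libraries for ace-1 (range -0.20 to 0.21; 0.024 without pair 4 and the block), cha-1/unc-17 (-0.086 to 0.054; 0.0058 likewise) and cho-1 (-0.12 to 0.12). For cho-1 it was also above 0 with the replicate block in DESeq2 (0.00090), with RLE scaling (0.0011) and with no filter (0.0026). No cause of these changes was tested, and all lie within the spread between libraries. The count of genes called over the whole table was 0 in the fit reported, and 13 with the replicate block. DESeq2 gave 10, or 21 with the block. With the block it was 14 by limma voom, 13 with RLE scaling or without rRNA, 30 with no filter, 7 on log2(TPM + 1) and 9 on log2(TPM + 0.1). Without the block it was 3 with RLE scaling, with no filter or on log2(TPM + 0.1), and 4 without pair 4. Leaving out libraries or pairs gave 0 to 16. Genes called between pairs numbered 10053 of 15496, and 2992 to 9884 with 1 pair left out. Without pair 4, 2992 of 15319 genes and 0 of the acetylcholine rows (otherwise 2) were called. Depth limits ace-4 most, at 4 to 15 counts per library.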

Other observations

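Across the 8 libraries, ace-1 and ace-2 had the most similar log2 CPM profiles among the acetylcholine rows (Pearson r = 0.849), followed by ace-2 with cha-1/unc-17 (0.728) and cha-1/unc-17 with cho-1 (0.670). The operon neighbours ace-3 and ace-4 gave r = 0.043, with few ace-4 counts behind it. These values describe 8 libraries that share 4 pairs.

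Of 12388 other genes with a mean of at least 50 counts, those most like each row over the 8 libraries were K01A2.10 (r = 0.994) and the collagen gene col-126 (0.994) for ace-1, lpr-2 (0.995, a lipocalin-related gene) and Y71F9B.1 (0.991) for ace-2, and lsm-1 (0.941) and D2085.7 (0.893) for ace-3. For cha-1/unc-17 they were the lipase gene lipl-5 (0.961) and C24B5.4 (0.942), for cho-1 K08D8.3 (0.958) and M01H9.3 (0.957), and for ace-4 B0047.2 (0.931) and R04E5.9 (0.924). None is on the neuronal marker lists used here. Those lists hold only 19 pan-neuronal and 14 other transmitter genes, against 12388 candidates, so no conclusion is drawn from this.

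The pair number took 97.3% of the variance of log2 CPM for ace-1, 81.4% for ace-2, 83.0% for cho-1, 75.8% for cha-1/unc-17 and 50.9% for ace-3, with a median of 88.6% over all tested genes. The treatment took 0.0213% for ace-1, 8.78% for ace-2, 0.0294% for cho-1, 0.981% for cha-1/unc-17 and 23.8% for ace-3, with a median of 1.21%. For ace-4, with few counts, the pair number took 29.7% and the treatment 1.80%. These are raw shares of the sum of squares, not corrected for the number of pairs and treatments. Values that vary at random also give shares above 0, and no share was tested.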
